A study of Mus musculus with 24 samples.

Results

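The interaction between loss of Notchless and loss of Apc was described in jejunal crypts of mice 48 h after induction. Notchless is encoded by Nle1. The measure was the change on Notchless loss in crypts that had lost Apc (ApccKO;NlecKO against ApccKO) minus the change on Notchless loss in crypts with Apc (NlecKO against Control), on the log2 scale. The 12 libraries labelled day 2 were used, of 24 libraries in the whole series, with 3 libraries in each of the 4 groups. Each library came from 1 mouse, per the series design.

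The ApccKO;NlecKO mice carried conditional knockouts of both genes, the ApccKO mice of Apc, and the NlecKO mice of Nle1. The labels call the remaining mice Control and do not spell out their alleles. All mice, Control included, received 56 mg/kg tamoxifen by intraperitoneal injection on 3 consecutive days at 5 to 10 weeks of age. The sources used here name neither the driver of the recombinase nor the strain, which limits the groups as models. The other 12 libraries were of the same 4 genotypes, 24 h after induction (day 1).

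The Notchless protein helps to build the large subunit of the ribosome in the nucleolus and nucleus. When that assembly is disturbed, free ribosomal proteins can bind MDM2, the ligase that marks p53 for destruction, and p53 accumulates. The APC protein belongs to the complex that destroys beta-catenin; without it beta-catenin accumulates and, with TCF factors, keeps Wnt target genes on. In the crypt, Wnt signalling maintains the stem cells at the base, and cells that leave the base become enterocytes or secretory cells.

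Libraries of day 2 held 18.01 to 26.47 M estimated counts. The low-count filter kept 16552 of 37620 genes. Levels are given as counts per M (CPM) for each library in the order of the replicate numbers. They were not divided by gene length, so levels of different genes were not compared. Stromal and endothelial markers were summed over the 29 present in the counts, of which 18 passed the filter. They summed to 49.0 to 81.0 CPM in ApccKO;NlecKO, 26 to 41.6 CPM in ApccKO, 64.6 to 95.5 CPM in NlecKO and 43.4 to 85.8 CPM in Control crypts. Defining markers of crypt epithelium (Lgr5 and Muc2 among them) were present in all 12 libraries. Control replicate 2 stood apart in enterocyte markers, which summed to 19070 CPM there, against 59020 and 49860 CPM in the other Control libraries. It was also the highest Control library in stem cell markers (4346 against 3105 and 3473 CPM) and S phase genes (2522 against 1908 and 2029 CPM). The same held for G2 and M phase genes (3070 against 2225 and 2502 CPM) and immune cell markers (1952 against 1338 and 1357 CPM). In bulk crypts, fewer cells of a type and less RNA per cell cannot be told apart.

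The targeted transcript was read first. Nle1 (ENSMUSG00000020692) had 11, 9.6 and 8.83 CPM in ApccKO;NlecKO crypts, against 36.2, 34.3 and 34.2 CPM in ApccKO crypts, and 7.3, 5.52 and 7.25 CPM in NlecKO crypts, against 20.1, 27.9 and 20.1 CPM in Control crypts. ApccKO;NlecKO lay below ApccKO and NlecKO below Control, with no overlap in either pair. On the log2 scale, given here and below as the estimate ± SE with 3 libraries a group, the change was -1.83 ± 0.17, adjusted p = 1.8e-07 with Apc lost and -1.77 ± 0.17, adjusted p = 2.5e-06 with Apc intact, and the interaction was -0.06 ± 0.23, adjusted p = 0.93. Apc (ENSMUSG00000005871) ranged from 112 to 150 CPM over the 12 libraries, with an interaction of -0.03 ± 0.11, adjusted p = 0.92. A partial deletion can leave the total count of a transcript as it was, and this level therefore checks nothing about the Apc labels.

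Expression responded to Notchless loss differently in the 2 Apc states, with lower interactions among stem cell markers and higher ones among goblet cell markers and some p53 targets. Of 16552 genes, 868 (5.24%) had an adjusted p under 0.05 for the interaction in edgeR's quasi-likelihood test, adjusted after Benjamini and Hochberg over every gene tested, the rule for every call below. The interaction was higher for 545 genes (3.29% of all tested) and lower for 323 (1.95%). An interaction is called higher where the change on Notchless loss was more positive with Apc lost than with Apc intact, and lower where it was more negative. At least a 2-fold difference between the 2 changes was seen for 361 of the called genes, 205 higher and 156 lower.

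That split changed with the library to which TMM, the scaling method, scales the others. With ApccKO;NlecKO replicate 1 of day 2 as that library, 354 genes were higher and 587 lower. Under a stricter low-count filter 386 were higher and 645 lower, and in a fit to the 12 libraries alone 345 were higher and 526 lower. On the log2 scale the median interaction over all tested genes was -0.0542 with that library, against 0.0441 as reported here. Estimates near 0 are read against this shift. Of the 66 called genes that the naming rule chose, none reversed in the alternatives that gave it a value (19 for Hes5, 20 for the others). These genes were chosen as called in the same libraries, so this is no further test. Over these genes, leaving out a library kept the call 636 times and lost it 156 times.

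**Figure D1:**
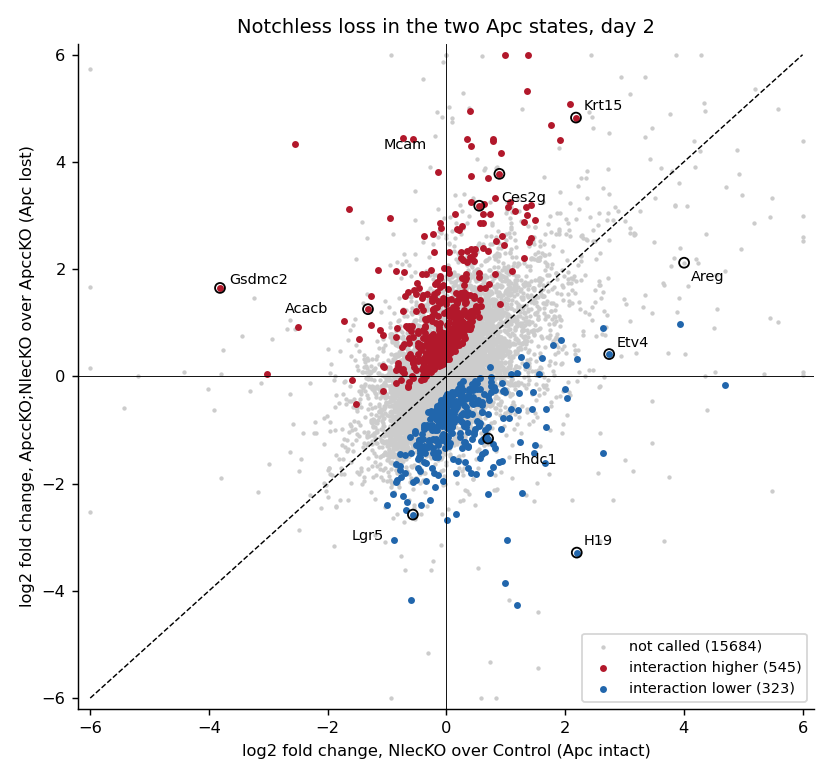
Change on Notchless loss with Apc lost (ApccKO;NlecKO over ApccKO, vertical) against the change with Apc intact (NlecKO over Control, horizontal) on day 2, on log2 scales, 1 point per gene. The dashed line marks equal changes, values beyond 6 are drawn at 6, and rings mark the genes with a name. The 545 genes called higher lie above the line and the 323 called lower lie under it, and 403 and 223 of them were called with Apc lost and not with Apc intact.

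For most called genes, the change on Notchless loss was seen with Apc lost. In that state 5775 genes were called (34.9%), 3221 raised (19.5%) and 2554 lowered (15.4%), against 2581 (15.6%) with Apc intact, 1214 raised (7.33%) and 1367 lowered (8.26%). Of the 545 genes with a higher interaction, 403 (73.9%) were raised with Apc lost and not called with Apc intact, 56 were raised in both states, 54 were lowered with Apc intact and not called with Apc lost, and 25 were raised with Apc lost and lowered with Apc intact. Among the 323 with a lower interaction, 223 (69.0%) were lowered with Apc lost and not called with Apc intact, 45 were raised with Apc intact and not called with Apc lost, 30 were lowered in both states, and 19 were lowered with Apc lost and raised with Apc intact. The change with Apc lost was the larger in size for 473 of the 545 and 258 of the 323. These counts describe the same libraries as the interaction and are no further test of it. On an unlogged CPM scale the interaction had the same sign for 537 of the 545 and 317 of the 323. Among the 66, the sign was the other one on the unlogged scale for 5: Sco2, Gip, Ptgs1, Ces2e and Tnfrsf12a.

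Of 28 tested stem cell markers 13 had a lower interaction and 0 a higher one, where 1.95% of all genes were lower. The median interaction was -0.77, against 0.0441 over all genes, and all 28 estimates were negative. With Apc lost 19 were lowered and 1 raised (15.4% and 19.5% of all genes). With Apc intact 4 were lowered and 6 raised (8.26% and 7.33%). Over the 20 alternatives, 5 to 15 members were lower and 0 higher, with medians of -0.865 to -0.656. The lowest count, 5, came without ApccKO;NlecKO replicate 3, and counts of 6 to 8 came with no filter beyond 1 count and without ApccKO replicate 1 or 3, ApccKO;NlecKO replicate 2, NlecKO replicate 1 or Control replicate 1 or 3. The list summed to 3846 to 4408 CPM in ApccKO;NlecKO, against 7580 to 8704 CPM in ApccKO crypts. The sums were 2379 to 2985 CPM in NlecKO, against 3105 to 4346 CPM in Control crypts.

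Lgr5 (ENSMUSG00000020140), a receptor for R-spondins and the standard marker of crypt base stem cells, had 41.7, 38 and 28.6 CPM in ApccKO;NlecKO crypts, against 258, 159 and 230 CPM in ApccKO crypts, and 25.4, 18.6 and 17.7 CPM in NlecKO crypts, against 28.2, 36.1 and 26.4 CPM in Control crypts. The ApccKO libraries stood far above all others, the ApccKO;NlecKO libraries lay near Control, and NlecKO lay just under Control with no overlap. With Apc lost the fall was -2.58 ± 0.26, adjusted p = 1.3e-06, with Apc intact the value was -0.56 ± 0.26, adjusted p = 0.16, and the interaction was -2.01 ± 0.36, adjusted p = 0.0043.

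Igfbp4 (ENSMUSG00000017493), a secreted protein that binds insulin-like growth factors and restrains Wnt signalling, had 307, 275 and 267 CPM in ApccKO;NlecKO crypts, against 605, 452 and 574 CPM in ApccKO crypts, and 54.6, 43.7 and 57.9 CPM in NlecKO crypts, against 35.6, 33.9 and 26.8 CPM in Control crypts. Its levels were lower on Notchless loss with Apc lost (-0.94 ± 0.16, adjusted p = 0.00017) and higher with Apc intact (0.70 ± 0.17, adjusted p = 0.0072), without overlap in either pair. The interaction was -1.64 ± 0.23, adjusted p = 0.00055.

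Tnfrsf19 (ENSMUSG00000060548), a TNF receptor family member found on stem cells and a known Wnt target, had 59.5, 44.9 and 40.4 CPM in ApccKO;NlecKO crypts, against 117, 96.3 and 124 CPM in ApccKO crypts, and 8.42, 6.35 and 8.92 CPM in NlecKO crypts, against 4.77, 8.53 and 5.62 CPM in Control crypts. The fall with Apc lost left the ApccKO;NlecKO libraries several times above NlecKO and Control, whose ranges overlapped. Its interaction was -1.52 ± 0.35, adjusted p = 0.016, and the adjusted p was 0.052 without ApccKO;NlecKO replicate 3. Slc12a2 (ENSMUSG00000024597), the basolateral sodium, potassium and chloride cotransporter of crypt cells, had 865, 848 and 790 CPM in ApccKO;NlecKO crypts, against 1420, 1310 and 1420 CPM in ApccKO crypts, and 467, 462 and 545 CPM in NlecKO crypts, against 418, 522 and 433 CPM in Control crypts. It fell with Apc lost and was not called with Apc intact, and it had an interaction of -0.83 ± 0.16, adjusted p = 0.0051.

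Gkn3 (ENSMUSG00000030048), a gastrokine gene, had 7.48, 3.22 and 2.6 CPM in ApccKO;NlecKO crypts, against 40.5, 37.4 and 34.6 CPM in ApccKO crypts, and 2.1, 1.66 and 1.7 CPM in NlecKO crypts, against 4.48, 2.52 and 3.11 CPM in Control crypts. The ApccKO libraries stood far above the rest, and the interaction was -2.18 ± 0.57, adjusted p = 0.032. The call was lost in 11 of 20 alternatives. Cdca7 (ENSMUSG00000055612), a chromatin factor of proliferating cells, had an interaction of -0.78 ± 0.17, adjusted p = 0.011. The other 7 called members were Olfm4 (-1.39 ± 0.34, adjusted p = 0.023), a secreted glycoprotein of crypt base cells, Aqp4 (-1.30 ± 0.33, adjusted p = 0.026), a water channel, the RNA-binding protein genes Mex3a (-1.22 ± 0.30, adjusted p = 0.021) and Msi1 (-1.04 ± 0.28, adjusted p = 0.033), Phlda1 (-1.26 ± 0.30, adjusted p = 0.018), Soat1 (-0.61 ± 0.18, adjusted p = 0.048), which esterifies cholesterol, and Rnf43 (-0.46 ± 0.12, adjusted p = 0.027), a ligase that removes Frizzled receptors. Phlda1 and Soat1 were raised with Apc intact and not called with Apc lost.

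Wnt targets and feedback genes had 5 of 30 members with a lower interaction, against 1.95% of all genes, and 0 with a higher one. Their median was -0.41. DESeq2 called 7 lower and 2 higher. The 5 were Lgr5, Tnfrsf19, Slc12a2, Rnf43 and Tcf7 (-0.60 ± 0.17, adjusted p = 0.047), a TCF factor, and the first 4 are also on the stem cell list. The summed level of the list in ApccKO;NlecKO crypts lay within the range of ApccKO crypts. It was 5751 to 5860 CPM in ApccKO;NlecKO, against 5606 to 6313 CPM in ApccKO crypts, and 2114 to 2902 CPM in NlecKO, against 1627 to 2185 CPM in Control crypts. Rnf43 had 292, 265 and 288 CPM in ApccKO;NlecKO crypts, against 373, 310 and 360 CPM in ApccKO crypts, and 108, 95.2 and 105 CPM in NlecKO crypts, against 88.3, 103 and 83.8 CPM in Control crypts. Its fall with Apc lost was small (-0.30 ± 0.08, adjusted p = 0.0078), and the call of its interaction was lost in 9 of 20 alternatives. The count of lower Wnt targets was 10 without Control replicate 2, 3 in the fit with no filter beyond 1 count and with the replicate number as a block, 2 without ApccKO;NlecKO replicate 3, and 3 without ApccKO replicate 1 or 3, ApccKO;NlecKO replicate 2 or Control replicate 1 or 3.

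The promoter of Tnfrsf19 is shown because it holds the TCF-binding word CTTTGAT, read here on the other strand and printed in capitals. It covers chr14:61037938-61038237 on the minus strand of GRCm38.p6, from 250 bases before to 50 bases after the start of the gene in RefSeq. The files name mm9 as their build, and the sequence was matched by gene symbol.
Tnfrsf19: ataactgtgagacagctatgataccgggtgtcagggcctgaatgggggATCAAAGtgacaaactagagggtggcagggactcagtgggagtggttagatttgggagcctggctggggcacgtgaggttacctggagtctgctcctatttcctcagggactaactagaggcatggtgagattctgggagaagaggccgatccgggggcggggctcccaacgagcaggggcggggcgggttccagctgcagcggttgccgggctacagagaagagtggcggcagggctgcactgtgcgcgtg
The word was searched on both strands of all such promoters. It was present for 3 of 18 tested Wnt list genes with a promoter (16.7%), 2 of 19 stem cell markers (10.5%) and 3.24% of all tested genes. Genes with a higher and with a lower interaction held it in 2.49% and 3.03%.

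**Figure D2:**
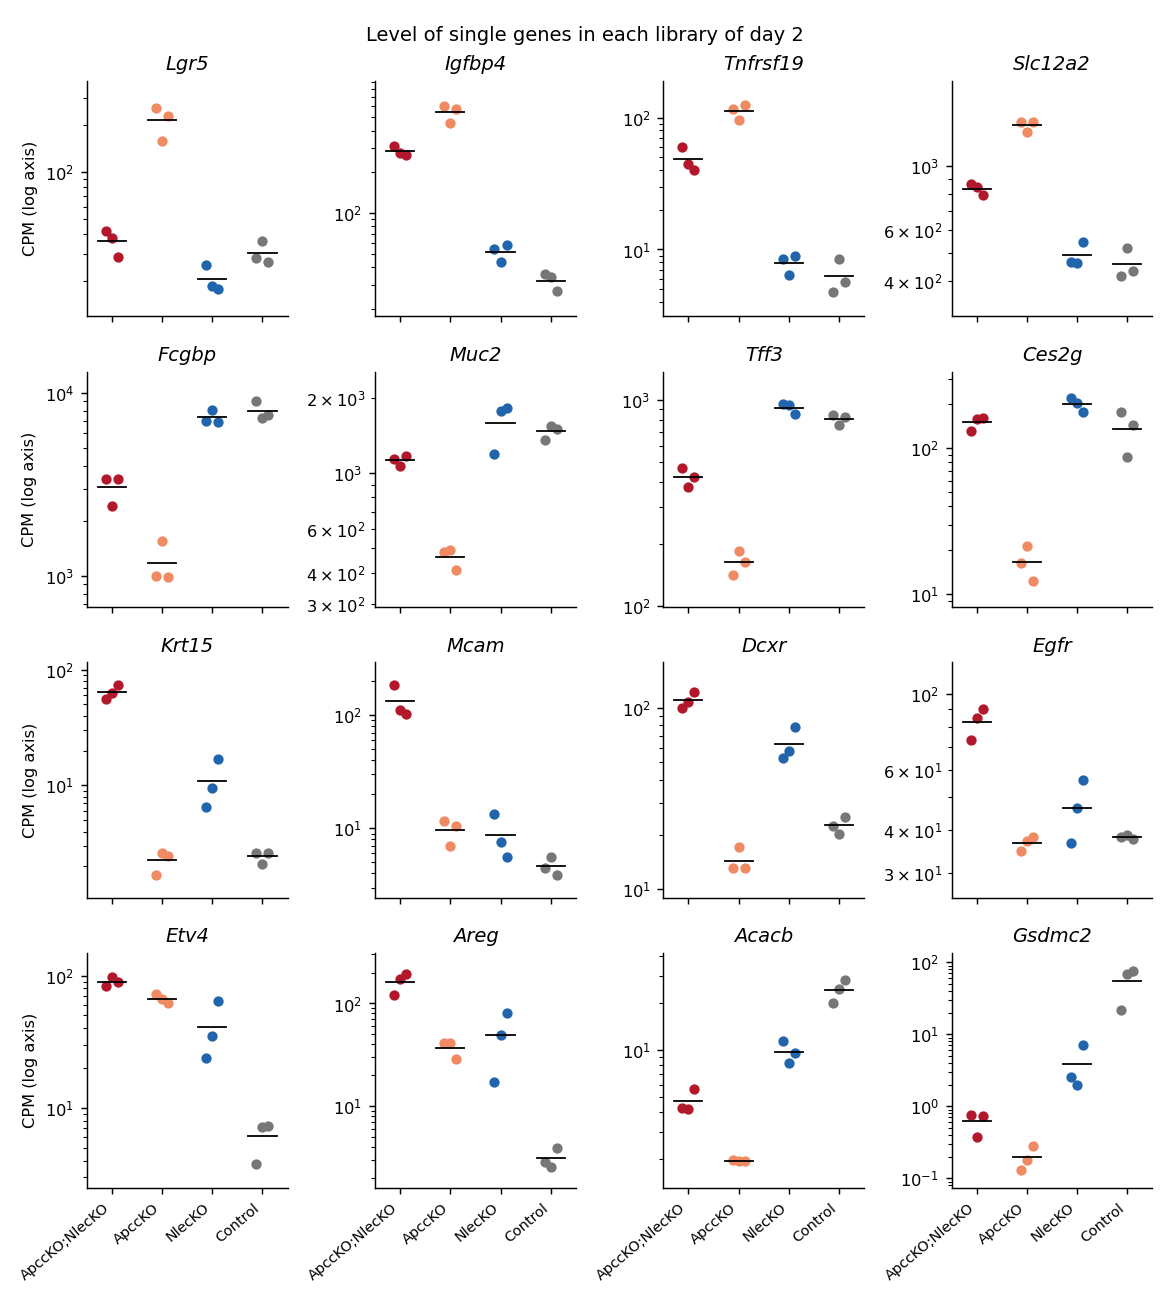
Level of 16 genes in CPM on log axes in each library of day 2, with groups in the order ApccKO;NlecKO, ApccKO, NlecKO and Control, 1 point per mouse and a bar at the mean of 3. In the top row the ApccKO libraries stand highest; in the second row they stand lowest.

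Most genes of DNA replication fell on Notchless loss with Apc lost and 22 of 44 fell with Apc intact. Of 44 S phase genes 43 were lowered with Apc lost (15.4% of all genes) and 22 with Apc intact (8.26%). The interaction was lower for 4, against 1.95% of all genes, and higher for 0. Its median was -0.58, with 43 of 44 estimates negative. The 4 were Tipin (-0.96 ± 0.24, adjusted p = 0.022) of the replication fork protection complex, the clamp loader subunit gene Rfc3 (-0.59 ± 0.15, adjusted p = 0.026), Dut (-0.84 ± 0.21, adjusted p = 0.027), which clears dUTP, and the histone chaperone subunit gene Chaf1b (-0.99 ± 0.28, adjusted p = 0.042). Dut had 33.8, 37.2 and 29.9 CPM in ApccKO;NlecKO crypts, against 67.4, 60.2 and 63.3 CPM in ApccKO crypts, and 37.3, 30.2 and 35.4 CPM in NlecKO crypts, against 32.6, 41.7 and 34.4 CPM in Control crypts. Only the ApccKO libraries stood apart, above all others. Chaf1b, Rfc3, Dut and Tipin lost their calls in 10, 7, 6 and 5 of 20 alternatives. The count of lower members depended on the settings: 16 members were lower with the other scaling library, 18 in the fit to the 12 libraries alone, 19 under the stricter filter, 17 without Control replicate 2, 13 by DESeq2, 2 with the replicate block, 6 with a term for sex or without NlecKO replicate 2 or 3, 1 without ApccKO replicate 1 or 3, ApccKO;NlecKO replicate 1 or Control replicate 3, and 0 without ApccKO;NlecKO replicate 3, NlecKO replicate 1 or Control replicate 1.

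Division genes also fell in both states. Of 40 G2 and M phase genes 35 were lowered with Apc lost (15.4% of all genes) and 34 with Apc intact (8.26%). The interaction was called for 0 by edgeR and 0 by DESeq2, with 2 at an unadjusted p under 0.05 and 1 called lower with a term for sex. The smallest p belonged to Ect2 (-0.61 ± 0.28, adjusted p = 0.23), a cytokinesis factor, Cenpa (-0.54 ± 0.26, adjusted p = 0.25), the centromeric histone, and the kinesin genes Kif20a (-0.42 ± 0.21, adjusted p = 0.26) and Kif4 (-0.43 ± 0.21, adjusted p = 0.27). Their median interaction was -0.32. A p that misses the threshold does not show that the changes were equal.

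Ribosome assembly genes, to which Nle1 belongs, had 0 of 69 members called by edgeR for the interaction, with 6 at an unadjusted p under 0.05, 1 called lower by DESeq2 and a median of -0.15. Alternatives in edgeR called up to 4 lower: 4 with a term for sex, 3 under the stricter filter and in the 12 libraries alone, and 2 without Control replicate 2. The median ranged from -0.249 in the 12 libraries alone to -0.0388 without NlecKO replicate 3, with -0.239 without Control replicate 2. With Apc lost 22 were raised and 4 lowered (19.5% and 15.4% of all genes). With Apc intact 42 were raised and 1 lowered (7.33% and 8.26%). Gnl3 (ENSMUSG00000042354), the nucleolar protein nucleostemin, had 87.9, 104 and 100 CPM in ApccKO;NlecKO crypts, against 105, 82.9 and 90 CPM in ApccKO crypts, and 60.9, 65.5 and 76.3 CPM in NlecKO crypts, against 42.3, 49.9 and 42.4 CPM in Control crypts. It rose with Apc intact (0.59 ± 0.11, adjusted p = 0.0016) and was not called with Apc lost (0.07 ± 0.11, adjusted p = 0.68), but the difference between these changes missed the threshold (-0.52 ± 0.16, adjusted p = 0.06). Cytosolic ribosomal protein genes also had 0 of 79 called by edgeR and 0 by DESeq2, with 3 at an unadjusted p under 0.05. Of these 42 were raised with Apc lost (19.5% of all genes) and 5 with Apc intact (7.33%). The median interaction was 0.105, of the size of the scaling shift. Rplp1 had the smallest p, with 0.45 ± 0.19, adjusted p = 0.18.

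Targets of p53 rose on Notchless loss in both Apc states, and for some the rise was larger with Apc lost. Of 44 tested, 39 were raised and 1 lowered with Apc lost (19.5% and 15.4% of all genes), and 36 were raised and 1 lowered with Apc intact (7.33% and 8.26%). The interaction was higher for 7, against 3.29% of all genes, and lower for 0. Its median was 0.26, with a range over the alternatives of 0.157 (the other scaling library and the 12 libraries alone) to 0.423 (without NlecKO replicate 3), and 0.158 without NlecKO replicate 1. Over the alternatives 6 to 14 members were higher and 0 or 1 lower; the count of 14 came without NlecKO replicate 3, whose p53 targets summed highest of its group. The sums were 5882 to 7043 CPM in ApccKO;NlecKO against 1828 to 1895 CPM in ApccKO crypts, and 3419 to 5348 CPM in NlecKO against 1467 to 1738 CPM in Control crypts.

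Dcxr (ENSMUSG00000039450), a reductase of dicarbonyls and xylulose, had 99.4, 107 and 122 CPM in ApccKO;NlecKO crypts, against 13.1, 17 and 13.1 CPM in ApccKO crypts, and 52.7, 57.8 and 78.2 CPM in NlecKO crypts, against 22.2, 20.2 and 25.1 CPM in Control crypts. Both pairs were apart, and the ApccKO;NlecKO libraries lay above NlecKO while ApccKO lay under Control. It rose by 2.92 ± 0.15, adjusted p = 1.4e-10 with Apc lost and by 1.49 ± 0.14, adjusted p = 2.2e-06 with Apc intact, giving an interaction of 1.44 ± 0.19, adjusted p = 0.00032. Ercc5 (ENSMUSG00000026048), an endonuclease of nucleotide excision repair, had 63.4, 76.1 and 73.9 CPM in ApccKO;NlecKO crypts, against 17.9, 19.5 and 19 CPM in ApccKO crypts, and 28.6, 37.7 and 50 CPM in NlecKO crypts, against 21.2, 21.2 and 23.5 CPM in Control crypts. The ApccKO;NlecKO libraries stood above all others, and the interaction was 1.10 ± 0.23, adjusted p = 0.0077. Fas (ENSMUSG00000024778), a death receptor, had 11.1, 12.9 and 12.2 CPM in ApccKO;NlecKO crypts, against 1.26, 3.34 and 1.72 CPM in ApccKO crypts, and 12.1, 13.1 and 12.9 CPM in NlecKO crypts, against 10.3, 4.86 and 6.32 CPM in Control crypts, with an interaction of 1.68 ± 0.37, adjusted p = 0.012. The groups without Notchless lay at like levels of Fas, and the ApccKO libraries were the lowest. The adjusted p of Fas was 0.061 in the fit to the 12 libraries alone.

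Ei24 (ENSMUSG00000062762), a membrane protein of the endoplasmic reticulum linked to autophagy, had 177, 190 and 196 CPM in ApccKO;NlecKO crypts, against 85.7, 93.2 and 82.1 CPM in ApccKO crypts, and 148, 142 and 156 CPM in NlecKO crypts, against 104, 94.4 and 108 CPM in Control crypts. No pair overlapped, the ApccKO;NlecKO libraries were the highest, and the interaction was 0.57 ± 0.10, adjusted p = 0.0043. The gene listed as 9030617O03Rik (ENSMUSG00000021185), also named Dglucy, which metabolises D-glutamate, had an interaction of 1.68 ± 0.25, adjusted p = 0.0008 and was called only with Apc lost. The other 2 called targets were Perp (0.85 ± 0.18, adjusted p = 0.011), a desmosome protein, and the DNA polymerase gene Polk (0.90 ± 0.23, adjusted p = 0.028). Outside the rule for named genes, and chosen after their values were seen, the cell cycle inhibitor gene Cdkn1a (0.93 ± 0.29, adjusted p = 0.068) and Mdm2 (0.77 ± 0.25, adjusted p = 0.081) did not pass.

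The promoter of Ei24 is shown as that of a called p53 target with a p53 half-site, printed in capitals. It covers chr9:36797285-36797584 on the minus strand of GRCm38.p6 in RefSeq.
Ei24: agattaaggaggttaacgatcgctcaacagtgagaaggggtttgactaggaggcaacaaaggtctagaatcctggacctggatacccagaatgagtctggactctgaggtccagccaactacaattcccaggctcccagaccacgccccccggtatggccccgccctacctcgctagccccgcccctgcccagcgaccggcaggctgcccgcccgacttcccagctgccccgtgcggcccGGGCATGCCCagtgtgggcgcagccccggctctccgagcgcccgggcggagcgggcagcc
Searched on both strands, this half-site was present for 12 of 31 tested p53 list genes with a promoter (38.7%), a list made of known targets, and for 8.39% of all tested genes. Genes with a higher and with a lower interaction held it in 11.2% and 6.93%.

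Of 38 cell death genes 2 had a higher and 3 a lower interaction, where 3.29% of all genes were higher and 1.95% lower. Besides Fas the antiapoptotic gene Bcl2l1 was higher (0.79 ± 0.21, adjusted p = 0.03). Tnfrsf12a, the receptor for TWEAK, and the proapoptotic genes Bcl2l11 (-0.85 ± 0.19, adjusted p = 0.013) and Bmf (-1.41 ± 0.33, adjusted p = 0.018) were lower. The call of Bmf was lost without ApccKO replicate 3, Control replicate 1 or NlecKO replicate 2, and that of Bcl2l11 without ApccKO;NlecKO replicate 3. Over the alternatives 0 to 3 members were higher and 2 to 4 lower. Bcl2l11 (ENSMUSG00000027381), which encodes BIM, had 16.9, 15.8 and 12.9 CPM in ApccKO;NlecKO crypts, against 27.2, 34.2 and 30.1 CPM in ApccKO crypts, and 19.3, 18.5 and 16.9 CPM in NlecKO crypts, against 19, 19.4 and 22.3 CPM in Control crypts. Only the ApccKO libraries stood apart, above the other 3 groups. The median of the list was 0.03 and turned negative with the other scaling library.

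Goblet cell markers rose on Notchless loss with Apc lost more than with Apc intact for 7 members on the log2 scale. Of 24 tested, 7 had a higher interaction (3.29% of all genes) and 0 a lower one, with a median of 0.35. With Apc lost 9 were raised and 3 lowered (19.5% and 15.4% of all genes). With Apc intact 0 were raised and 1 lowered (7.33% and 8.26%). The list summed to 5943 to 7461 CPM in ApccKO;NlecKO against 2866 to 3701 CPM in ApccKO crypts, which was still below the Apc-intact groups, at 12600 to 14460 CPM in NlecKO and 12190 to 14070 CPM in Control crypts. Between 4 and 7 members were higher over the alternatives, with medians of 0.254 to 0.436. The count was 4 with the other scaling library, with no filter beyond 1 count, with the replicate block, and without ApccKO replicate 1 or 3, ApccKO;NlecKO replicate 1 or 3, NlecKO replicate 1 or 2, or Control replicate 1 or 3.

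Fcgbp (ENSMUSG00000047730), a protein of the mucus gel, had 3370, 2420 and 3380 CPM in ApccKO;NlecKO crypts, against 998, 1550 and 986 CPM in ApccKO crypts, and 7060, 8010 and 6930 CPM in NlecKO crypts, against 8980, 7250 and 7600 CPM in Control crypts. Muc2 (ENSMUSG00000025515), the gel-forming mucin of goblet cells, had 1140, 1070 and 1170 CPM in ApccKO;NlecKO crypts, against 486, 495 and 409 CPM in ApccKO crypts, and 1190, 1770 and 1820 CPM in NlecKO crypts, against 1360, 1540 and 1510 CPM in Control crypts. Tff3 (ENSMUSG00000024029), the trefoil peptide secreted with it, had 465, 377 and 424 CPM in ApccKO;NlecKO crypts, against 141, 185 and 162 CPM in ApccKO crypts, and 959, 945 and 851 CPM in NlecKO crypts, against 845, 755 and 823 CPM in Control crypts. In all 3 genes the ApccKO libraries lay lowest and the ApccKO;NlecKO libraries between them and the Apc-intact groups. The NlecKO and Control ranges overlapped for Fcgbp and Muc2 and were just apart for Tff3. The interactions were 1.49 ± 0.25, adjusted p = 0.0017, for Fcgbp, 1.17 ± 0.19, adjusted p = 0.0016, for Muc2, and 1.19 ± 0.16, adjusted p = 0.00033, for Tff3. The chemokine gene Ccl6 followed (1.25 ± 0.27, adjusted p = 0.011), and Zg16 (1.38 ± 0.38, adjusted p = 0.041), Bcas1 (1.27 ± 0.37, adjusted p = 0.0497) and Agr2 (0.67 ± 0.19, adjusted p = 0.045) completed the 7. Atoh1, the transcription factor that sets secretory fate, was not called (0.56 ± 0.21, adjusted p = 0.13).

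Enterocyte markers had 2 of 50 members called, both higher, near the 3.29% of all genes that were higher. Their median was 0.57, with 45 positive estimates. The markers summed to 10280 to 16110 CPM in ApccKO;NlecKO against 5755 to 8924 CPM in ApccKO crypts, and to 50120 to 68520 CPM in NlecKO against 19070 to 59020 CPM in Control crypts. The median was 0.94 without Control replicate 2, which held the lowest of these sums among Apc-intact libraries, 1.04 without ApccKO replicate 2 and 0.31 without Control replicate 1, and 1 to 3 members were called over the alternatives. The 2 were the gene listed as 2210415F13Rik (ENSMUSG00000013643), also named Lypd8, which keeps bacteria off the colonic epithelium (1.07 ± 0.20, adjusted p = 0.0048), and the carboxylesterase gene Ces2e (1.78 ± 0.51, adjusted p = 0.049). The call of Ces2e was lost in 15 of 20 alternatives. Its relative Ces2g (ENSMUSG00000031877) was among the 12 largest positive interactions, with 132, 159 and 162 CPM in ApccKO;NlecKO crypts, against 16.3, 21.3 and 12.3 CPM in ApccKO crypts, and 223, 203 and 176 CPM in NlecKO crypts, against 178, 87.7 and 144 CPM in Control crypts. The ApccKO libraries were the lowest for Ces2g and the other 3 groups overlapped in part, with an interaction of 2.63 ± 0.34, adjusted p = 0.00032 that was called in all 20 alternatives.

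**Figure D3:**
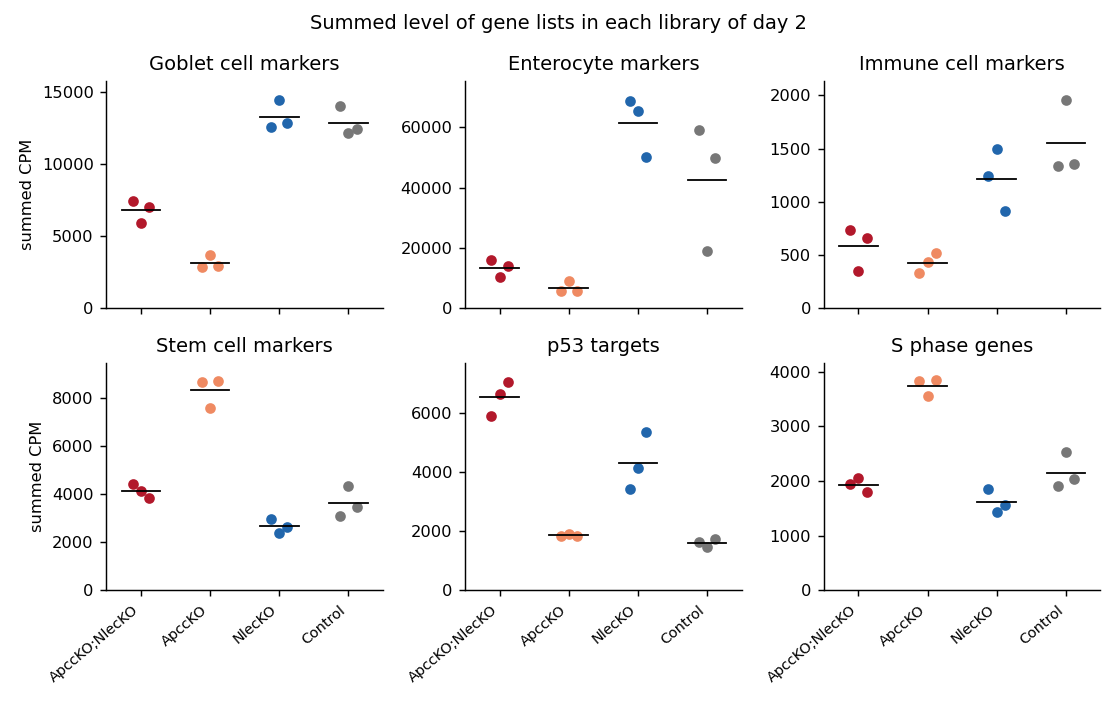
Summed level in CPM of 6 gene lists in each library of day 2, with groups in the order ApccKO;NlecKO, ApccKO, NlecKO and Control, 1 point per mouse and a bar at the mean of 3. Goblet and enterocyte markers are lowest in ApccKO crypts, stem cell markers and S phase genes are highest there, and p53 targets are highest in both groups without Notchless.

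Tuft cell markers gave 2 higher and 3 lower of 26, where 3.29% of all genes were higher and 1.95% lower. Over the alternatives 1 to 4 were higher and 1 to 3 lower. Alox5 (ENSMUSG00000025701), 5-lipoxygenase, which starts leukotriene synthesis, had 2.95, 5.04 and 4.83 CPM in ApccKO;NlecKO crypts, against 0.217, 0.271 and 0.14 CPM in ApccKO crypts, and 11.6, 9.75 and 15.2 CPM in NlecKO crypts, against 8.84, 6.6 and 11.9 CPM in Control crypts. It was nearly absent from ApccKO crypts (3 to 6 counts a library) and present in every other library, with an interaction of 3.88 ± 0.53, adjusted p = 0.00035. Ptgs1, cyclooxygenase 1, was higher too (1.96 ± 0.45, adjusted p = 0.015), a call lost without ApccKO replicate 1. Hpgds (-1.22 ± 0.34, adjusted p = 0.04), a prostaglandin D synthase, Cd24a (-0.73 ± 0.20, adjusted p = 0.039) and Tuba1a (-1.60 ± 0.20, adjusted p = 0.00018) were lower. The call of Cd24a was lost in 9 of 20 alternatives. Tuba1a shares 78.6% of its 31-base words with other transcripts, so its level is uncertain. Dclk1, the standard tuft cell marker, was not called (1.54 ± 0.49, adjusted p = 0.078). The leukotriene B4 receptor genes Ltb4r1 (3.65 ± 0.62, adjusted p = 0.0026) and Ltb4r2 (3.60 ± 0.61, adjusted p = 0.0027), which lie next to each other on chromosome 14, were among the 12 largest positive interactions. Ltb4r2 (ENSMUSG00000040432) had 15.3, 18.7 and 22.1 CPM in ApccKO;NlecKO crypts, against 0.477, 1.44 and 0.744 CPM in ApccKO crypts, and 14, 11.6 and 16.9 CPM in NlecKO crypts, against 12, 3.6 and 9.26 CPM in Control crypts. As for Alox5, the ApccKO libraries lay below all others.

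Enteroendocrine markers had 1 of 32 called, the incretin gene Gip (ENSMUSG00000014351), with 72.6, 87.4 and 85.6 CPM in ApccKO;NlecKO crypts, against 28.3, 29 and 21 CPM in ApccKO crypts, and 283, 292 and 329 CPM in NlecKO crypts, against 219, 159 and 195 CPM in Control crypts. The ApccKO libraries were the lowest and the NlecKO libraries the highest. Gip rose in both states, by 1.65 ± 0.16, adjusted p = 3.3e-07 with Apc lost and by 0.66 ± 0.15, adjusted p = 0.0055 with Apc intact, and the interaction was 0.99 ± 0.22, adjusted p = 0.011. Of the list 17 were raised and 4 lowered with Apc lost (19.5% and 15.4% of all genes), and 11 were raised with Apc intact (7.33%). The count of 1 of 32 with a higher interaction lay near the 3.29% of all genes. Paneth cell markers had 0 of 26 called by edgeR and 0 by DESeq2, with 2 at an unadjusted p under 0.05, and the smallest p was that of Rnase1 (-1.10 ± 0.45, adjusted p = 0.18). In the Notch pathway 2 of 25 were lower, Lfng (-0.92 ± 0.24, adjusted p = 0.028), the Fringe enzyme that modifies Notch receptors, lost in 6 of 20 alternatives, and the effector Hes5 (-2.16 ± 0.63, adjusted p = 0.0496), which held 4 to 39 counts a library and lost its call in 13 of 19 alternatives. Over the alternatives 0 to 3 members of the list were lower. In the fit reported here 1.95% of all genes were lower.

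**Figure D4:**
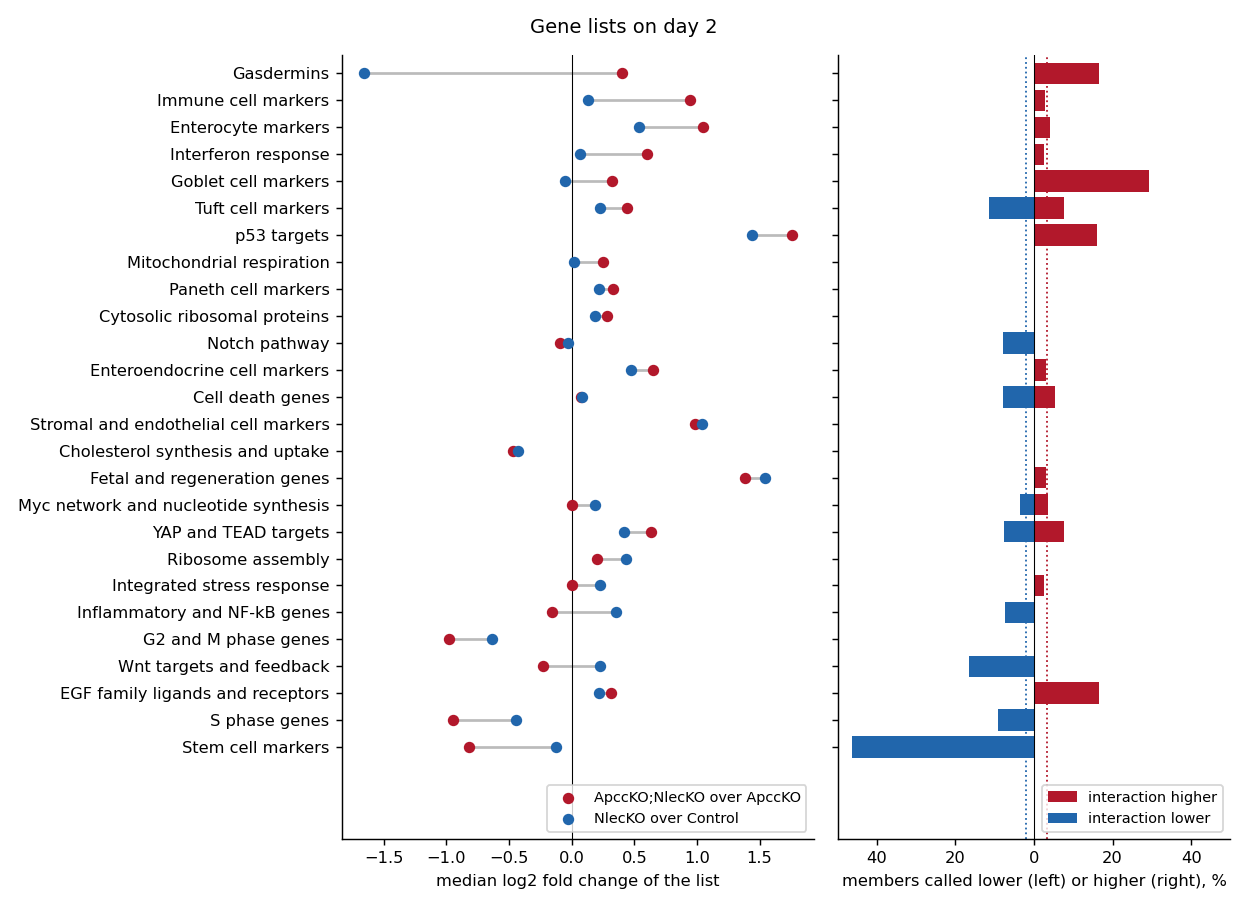
Left, median log2 change of 26 gene lists on Notchless loss with Apc lost (red) and with Apc intact (blue), ordered by the median interaction. Right, percentage of each list's tested members with a lower (left of 0) or higher (right of 0) interaction, beside the shares over all genes of 1.95% and 3.29% (dotted lines); of the stem cell markers 13 of 28 were lower and of the goblet cell markers 7 of 24 were higher.

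A further set of genes changed on Notchless loss with Apc intact and less or not at all with Apc lost. Etv4 (ENSMUSG00000017724), an ETS transcription factor, had 82.7, 96.7 and 89 CPM in ApccKO;NlecKO crypts, against 72, 67 and 62.1 CPM in ApccKO crypts, and 23.8, 35.2 and 64.2 CPM in NlecKO crypts, against 3.78, 7.23 and 7.28 CPM in Control crypts. Control crypts were low and the other 3 groups high, with NlecKO replicate 3 reaching the ApccKO range. The rise with Apc intact was 2.74 ± 0.31, adjusted p = 2.4e-05, with Apc lost the value was 0.42 ± 0.28, adjusted p = 0.26, and the interaction was -2.33 ± 0.41, adjusted p = 0.0041. Tnfrsf12a (ENSMUSG00000023905) had 67.2, 81.5 and 88.9 CPM in ApccKO;NlecKO crypts, against 40.4, 49.9 and 37.3 CPM in ApccKO crypts, and 17.6, 34.2 and 51 CPM in NlecKO crypts, against 4.07, 6.49 and 5.94 CPM in Control crypts. It rose in both states, by a larger ratio with Apc intact and by more CPM with Apc lost, and the interaction on the log2 scale was -1.74 ± 0.37, adjusted p = 0.01, with an adjusted p of 0.052 in the fit to the 12 libraries alone.

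Genes of the fetal and regeneration list rose in both states. With Apc lost 24 of 33 were raised (19.5% of all genes), and with Apc intact 19 were raised and 1 lowered (7.33% and 8.26%). The interaction was called for 1 member, near the 3.29% of all genes that were higher. This was Mal2 (0.69 ± 0.17, adjusted p = 0.022), a protein of apical transport whose call was lost in 7 of 20 alternatives. Clu (ENSMUSG00000022037), the chaperone clusterin, had 288, 216 and 230 CPM in ApccKO;NlecKO crypts, against 214, 248 and 328 CPM in ApccKO crypts, and 5.94, 9.42 and 22.8 CPM in NlecKO crypts, against 2.62, 3.93 and 2.68 CPM in Control crypts. The interaction was -2.15 ± 0.63, adjusted p = 0.055, not called, and the NlecKO libraries were spread over a wide range. Areg, the EGF receptor ligand amphiregulin (-1.88 ± 0.56, adjusted p = 0.061), and Cd44, a receptor of hyaluronan (-1.06 ± 0.32, adjusted p = 0.065), missed the threshold too. On the unlogged scale their interactions had the other sign, 78.3 CPM for Areg and 41.2 CPM for Cd44. Clu, Areg and Cd44 were called lower in 5, 4 and 6 of 20 alternatives. Counts of lower members in the list were 4 by DESeq2, under the stricter filter and without NlecKO replicate 1, 3 with the other scaling library, 2 with a term for sex and 1 without Control replicate 2, and its median of -0.105 ranged from -0.43 without NlecKO replicate 2 to 0.163 without NlecKO replicate 3. Of the EGF family, the receptor genes Egfr and Erbb2 were called, 2 of 12, both higher, although the median of the list was negative at -0.56. Over the alternatives 1 or 2 members were higher and 0 to 2 lower. In the fit reported here 3.29% of all genes were higher. Egfr (ENSMUSG00000020122) had 73.1, 84.9 and 90.4 CPM in ApccKO;NlecKO crypts, against 34.7, 37.3 and 38.3 CPM in ApccKO crypts, and 36.8, 46.3 and 56 CPM in NlecKO crypts, against 38.2, 38.6 and 37.7 CPM in Control crypts. The ApccKO;NlecKO libraries stood above all others, and the interaction was 0.89 ± 0.17, adjusted p = 0.0044. Erbb2 (0.47 ± 0.11, adjusted p = 0.022) fell with Apc intact (-0.64 ± 0.08, adjusted p = 3.9e-05) and lost its interaction call in 6 of 20 alternatives.

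YAP and TEAD targets had 2 higher and 2 lower of 26, where 3.29% of all genes were higher and 1.95% lower. Over the alternatives 2 or 3 were higher and 1 to 4 lower. Myof (ENSMUSG00000048612), the membrane repair protein myoferlin, had 61, 65.5 and 75.2 CPM in ApccKO;NlecKO crypts, against 12, 15.5 and 12.9 CPM in ApccKO crypts, and 14.5, 16.1 and 23.1 CPM in NlecKO crypts, against 16.1, 15.5 and 13.7 CPM in Control crypts. The receptor tyrosine kinase gene Axl (ENSMUSG00000002602) had 9.81, 9.5 and 13.9 CPM in ApccKO;NlecKO crypts, against 0.217, 0.541 and 0.512 CPM in ApccKO crypts, and 2.66, 2.82 and 5.84 CPM in NlecKO crypts, against 1.45, 1.19 and 0.696 CPM in Control crypts. Both were highest in ApccKO;NlecKO crypts without overlap, with interactions of 2.07 ± 0.24, adjusted p = 5.6e-05, for Myof, and 2.93 ± 0.56, adjusted p = 0.005, for Axl. The lower ones were Amotl2 (-1.02 ± 0.21, adjusted p = 0.008), which binds YAP, and Gadd45b (-0.83 ± 0.24, adjusted p = 0.049), a stress gene whose call was lost in 13 of 20 alternatives.

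Among the 12 largest positive interactions, Krt15 (ENSMUSG00000054146), a keratin of basal epithelial cells, had 55.7, 63.2 and 73.6 CPM in ApccKO;NlecKO crypts, against 1.69, 2.62 and 2.47 CPM in ApccKO crypts, and 6.5, 9.55 and 16.8 CPM in NlecKO crypts, against 2.62, 2.08 and 2.62 CPM in Control crypts. It rose in both states, by 4.83 ± 0.29, adjusted p = 1.1e-09 with Apc lost and 2.18 ± 0.27, adjusted p = 3.6e-05 with Apc intact, and the ApccKO;NlecKO libraries stood above every other. The interaction was 2.64 ± 0.38, adjusted p = 0.0006. Mcam (ENSMUSG00000032135), an adhesion molecule also found on endothelium, had 186, 111 and 103 CPM in ApccKO;NlecKO crypts, against 11.7, 7.04 and 10.4 CPM in ApccKO crypts, and 13.3, 7.55 and 5.59 CPM in NlecKO crypts, against 4.48, 5.53 and 3.86 CPM in Control crypts. Its level in ApccKO;NlecKO crypts exceeded that of all 3 other groups, and its interaction was 2.88 ± 0.58, adjusted p = 0.0083. Hic1 (ENSMUSG00000043099), a transcriptional repressor, had 7.85, 9.87 and 9.87 CPM in ApccKO;NlecKO crypts, against 1.17, 1.58 and 1.35 CPM in ApccKO crypts, and 8.3, 9.3 and 9.44 CPM in NlecKO crypts, against 5, 12.7 and 6.05 CPM in Control crypts, with the ApccKO libraries alone standing apart and an interaction of 2.57 ± 0.38, adjusted p = 0.00066.

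Acacb (ENSMUSG00000042010), the acetyl-CoA carboxylase at mitochondria, moved in opposite directions: it had 4.24, 4.18 and 5.66 CPM in ApccKO;NlecKO crypts, against 1.99, 1.94 and 1.95 CPM in ApccKO crypts, and 11.4, 8.22 and 9.56 CPM in NlecKO crypts, against 20, 24.5 and 28.2 CPM in Control crypts. It rose with Apc lost (1.25 ± 0.20, adjusted p = 5.6e-05) and fell with Apc intact (-1.32 ± 0.17, adjusted p = 4.9e-05), without overlap in either pair, and its interaction was 2.58 ± 0.26, adjusted p = 1.5e-05. Gsdmc2 (ENSMUSG00000056293), a gasdermin C gene, had 0.748, 0.376 and 0.728 CPM in ApccKO;NlecKO crypts, against 0.13, 0.18 and 0.279 CPM in ApccKO crypts, and 2.54, 1.99 and 7.01 CPM in NlecKO crypts, against 21.4, 67.7 and 75.2 CPM in Control crypts. It fell with Apc intact (-3.81 ± 0.52, adjusted p = 0.00011). With Apc lost the value was 1.65 ± 0.91, adjusted p = 0.17, at only 3 to 18 counts a library. Its interaction was 5.46 ± 1.01, adjusted p = 0.005. Of the 31-base words of the 3 tested gasdermin C genes, 51.2% to 63.9% also occur in other transcripts, which leaves their separate values uncertain. The remaining 2 of the 12 on the protein-coding side were Vstm2l (2.51 ± 0.39, adjusted p = 0.00092) and Sco2, a copper chaperone of the respiratory chain. Sco2 was listed at 12, 13.2 and 14.4 CPM in ApccKO;NlecKO crypts and at 0 in all 3 ApccKO libraries. If that 0 is a measured level, ApccKO;NlecKO was at least 97.8-fold higher against a floor of 3 counts per library, which is the change with Apc lost. Sco2 had 40.2, 51.3 and 32.9 CPM in NlecKO crypts, against 22.6, 6.27 and 19.4 CPM in Control crypts. With that floor, and on the same condition, the interaction was at least 5.25 on the log2 scale. Sco2 shares 89.7% of its words with other transcripts, and 66.2% with its neighbour Tymp. A level of 0 can therefore be a failed estimate, and then neither bound holds.

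The long noncoding RNA Rian (ENSMUSG00000091793), of the imprinted Dlk1 and Meg3 cluster, had 24.6, 13.9 and 23 CPM in ApccKO;NlecKO crypts, against 3.99, 4.06 and 1.16 CPM in ApccKO crypts, and 0.433, 0.664 and 0.608 CPM in NlecKO crypts, against 0.291, 0.668 and 0.482 CPM in Control crypts. It was higher in both groups without Apc than in those with Apc, and highest in ApccKO;NlecKO crypts, and the interaction was 2.52 ± 0.69, adjusted p = 0.039, lost in 11 of 20 alternatives. Of the 12 largest negative interactions, another imprinted noncoding RNA, H19 (ENSMUSG00000000031), had 3.45, 2.52 and 3.07 CPM in ApccKO;NlecKO crypts, against 31, 19.6 and 38 CPM in ApccKO crypts, and 0.433, 0.747 and 1.22 CPM in NlecKO crypts, against 0.0582, 0.148 and 0.321 CPM in Control crypts. The ApccKO libraries stood alone, and Control held 1 to 6 counts a library, so no fold is given for the Apc-intact pair. With Apc lost the change was -3.29 ± 0.72, adjusted p = 0.0018, and the interaction was -5.48 ± 1.33, adjusted p = 0.023, lost in 4 of 20 alternatives. That interaction includes the Apc-intact pair, so its size is uncertain at these counts.

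Fhdc1 (ENSMUSG00000041842), a formin domain protein of actin and microtubules, had 27.4, 26.3 and 28.4 CPM in ApccKO;NlecKO crypts, against 60.5, 63 and 60.1 CPM in ApccKO crypts, and 11.8, 14.6 and 17.7 CPM in NlecKO crypts, against 10, 8.75 and 8.51 CPM in Control crypts, with an interaction of -1.86 ± 0.17, adjusted p = 1.2e-05, the smallest p of all 16552 genes. Slit2 (ENSMUSG00000031558), a guidance ligand of ROBO receptors, had 3.82, 3.54 and 3.48 CPM in ApccKO;NlecKO crypts, against 13.1, 9.47 and 9.81 CPM in ApccKO crypts, and 7.92, 8.47 and 9.36 CPM in NlecKO crypts, against 4.66, 3.86 and 4.93 CPM in Control crypts, with an interaction of -2.52 ± 0.28, adjusted p = 4.6e-05. Both fell with Apc lost and rose with Apc intact, without overlap. Cym (-4.84 ± 0.81, adjusted p = 0.0028), Cap2 (-2.02 ± 0.42, adjusted p = 0.008), an actin regulator, and Ccdc3 (-1.90 ± 0.35, adjusted p = 0.0043) were lower as well. Ccdc3 shares 67.1% of its words with the transcript Gm26776. The kinase gene Fam20c (-2.05 ± 0.59, adjusted p = 0.048) and Pthlh (-1.92 ± 0.53, adjusted p = 0.04), a parathyroid hormone relative, each lost their call in 12 of 20 alternatives.

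Inflammatory and NF-kB genes had 2 of 27 lower, where 1.95% of all genes were lower. Tnf (ENSMUSG00000024401) had 1.37, 1.23 and 1.61 CPM in ApccKO;NlecKO crypts, against 3.51, 5.28 and 5.95 CPM in ApccKO crypts, and 0.867, 1.08 and 1.46 CPM in NlecKO crypts, against 0.175, 0.816 and 1.02 CPM in Control crypts. The ApccKO libraries were highest, and the interaction was -2.54 ± 0.61, adjusted p = 0.019, with 0.05 without ApccKO replicate 3, where the call was lost. Nos2 (ENSMUSG00000020826), the inducible nitric oxide synthase, had 0.665, 1.77 and 0.987 CPM in ApccKO;NlecKO crypts, against 6.2, 44.2 and 10.2 CPM in ApccKO crypts, and 1.49, 3.49 and 5.51 CPM in NlecKO crypts, against 1.34, 10.1 and 4.34 CPM in Control crypts. ApccKO replicate 2 was the highest by far, the interaction was -3.57 ± 1.0 (adjusted p = 0.045), and the call was lost in 10 of 20 alternatives, ApccKO replicate 2 left out among them (adjusted p = 0.13). Over the alternatives 1 to 4 members of the list were lower and 0 to 2 higher. Immune cell markers had 1 of 36 called, the complement gene C1qa (2.87 ± 0.60, adjusted p = 0.0086), with 34 positive estimates and a median of 0.93. They summed to 348 to 739 CPM in ApccKO;NlecKO, against 334 to 518 CPM in ApccKO crypts, and to 916 to 1494 CPM in NlecKO, against 1338 to 1952 CPM in Control crypts. Interferon genes had 1 of 39 called, Tap1 (ENSMUSG00000037321), the peptide transporter of antigen presentation, with 115, 117 and 162 CPM in ApccKO;NlecKO crypts, against 44.1, 45.2 and 46.7 CPM in ApccKO crypts, and 73.4, 105 and 80.8 CPM in NlecKO crypts, against 89.2, 124 and 85 CPM in Control crypts. The ApccKO libraries were the lowest, and the interaction was 1.74 ± 0.32, adjusted p = 0.0043. Both lists, at 1 of 36 and 1 of 39, lay near the 3.29% of all genes that were higher. Over the alternatives 1 to 3 immune markers were higher, and 1 to 3 interferon genes were higher and 0 to 2 lower. The part of immune cells in these values was not tested.

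Metabolic and stress lists held few calls, where 3.29% of all genes were higher and 1.95% lower. The integrated stress response had 1 of 39 higher, the endoplasmic reticulum stress sensor gene Ern1 (0.51 ± 0.15, adjusted p = 0.047), lost in 17 of 20 alternatives, and Psat1 (-1.04 ± 0.33, adjusted p = 0.07), of serine synthesis, did not pass but was called lower in 6 of 20 alternatives. The direction of the calls in this list depended on the settings: 0 members were higher and 4 lower under the stricter filter and in the 12 libraries alone, 0 higher and 3 lower with the other scaling library, 1 higher and 4 lower by DESeq2, 1 higher and 3 lower with a term for sex, 2 higher and 3 lower without Control replicate 2, and 2 higher and 0 lower without NlecKO replicate 1. The median was -0.18, with a range of -0.278 to -0.0498. Cholesterol synthesis genes fell in both states, 15 of 24 with Apc lost (15.4% of all genes) and 12 with Apc intact (8.26%). Here 0 interactions were called by edgeR, 2 were called lower by DESeq2 and 4 had an unadjusted p under 0.05. The smallest p was that of Acat2 (-0.55 ± 0.17, adjusted p = 0.062). Alternatives in edgeR called 2 lower under the stricter filter, in the 12 libraries alone and with the other scaling library. They called 1 lower with a term for sex and without Control replicate 2, ApccKO;NlecKO replicate 1 or NlecKO replicate 3. Acat2 was called in 6 of 20 alternatives. Mitochondrial respiration genes had 19 of 39 raised and 1 lowered with Apc lost (19.5% and 15.4% of all genes) and 1 raised with Apc intact (7.33%). In this list 0 interactions were called by edgeR, with 15 at an unadjusted p under 0.05, 35 estimates positive and a median of 0.25. Uqcrq (0.43 ± 0.13, adjusted p = 0.054), of complex III, came nearest. Calls in the list were 2 by DESeq2, 8 with a term for sex, 7 without Control replicate 2 and 1 without NlecKO replicate 1. The list leaves out some genes of the respiratory chain. Of 41 complex I genes, a family chosen after its values were seen, 4 that are not on the list were higher. In the Myc network and nucleotide synthesis list Mxd4 (ENSMUSG00000037235), a MAX partner that opposes MYC, had 71.5, 64.3 and 65.8 CPM in ApccKO;NlecKO crypts, against 37.6, 45.4 and 42 CPM in ApccKO crypts, and 61.1, 54.9 and 67.8 CPM in NlecKO crypts, against 65.2, 72.9 and 71.4 CPM in Control crypts. The ApccKO libraries were the lowest, and its interaction was 0.88 ± 0.13, adjusted p = 0.0008. Ppat (-0.84 ± 0.18, adjusted p = 0.011), the first enzyme of purine synthesis, was lower. The list had 1 of 28 higher and 1 lower, and 1 or 2 higher and 1 to 3 lower over the alternatives.

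The same contrast on day 1, in other mice, was called for 2 of 16552 genes (0.0121%), both higher: Mxd4 (0.83 ± 0.13, adjusted p = 0.041) and the noncoding RNA Meg3 (ENSMUSG00000021268; 2.71 ± 0.44, adjusted p = 0.041), which was also called on day 2 (2.30 ± 0.44, adjusted p = 0.0048). An unadjusted p under 0.05 was found for 1058 genes, and DESeq2 called 51. Of the 545 genes higher on day 2, 492 (90.3%) had a positive estimate on day 1, where 55.2% of all tested genes did. Of the 323 lower ones, 246 (76.2%) had a negative estimate, against 44.8% of all genes. The median interactions of these genes on day 1 were 0.24 and -0.17, against 0.80 and -0.97 on day 2, values for which they had been chosen. Across all 16552 genes the interactions of the 2 days correlated at Pearson's r = 0.193, and across the 868 at 0.652. The 868 were chosen for their day 2 values, which can raise r, and genes are not independent replicates.

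The difference between the days was called for 0 genes by edgeR (0%), while 1292 had an unadjusted p under 0.05 and DESeq2 called 26. Stem cell markers had a median interaction of -0.20 on day 1, with 0 of 28 called, and goblet markers of 0.04, with 0 of 24. Lgr5 had an interaction of -0.49 ± 0.36, adjusted p = 0.89, and Krt15 of 0.10 ± 0.36, adjusted p = 0.99, on that day. The interaction on day 2 was thus not shown to differ from that on day 1 for any gene by edgeR.

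**Figure D5:**
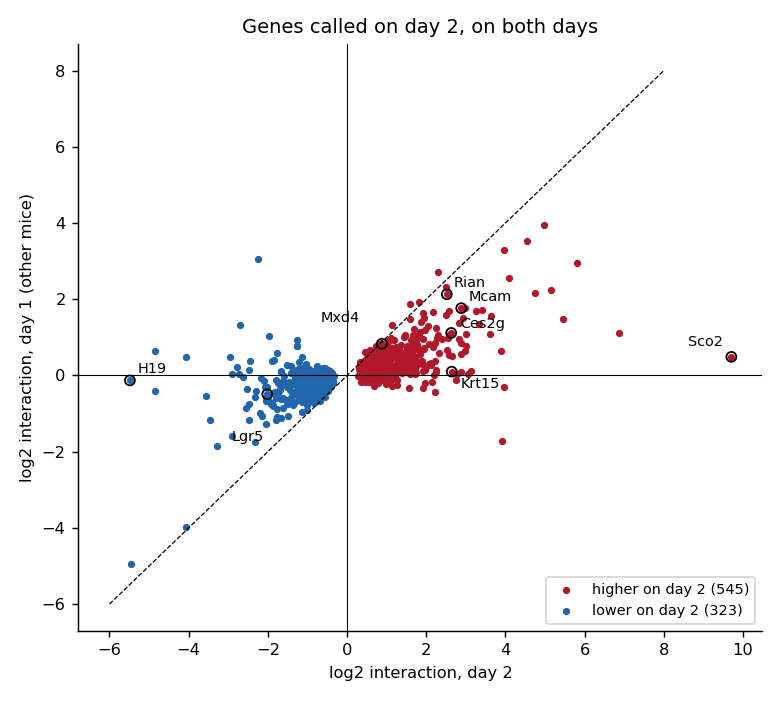
Interaction of the 868 genes called on day 2, on the log2 scale, on day 2 (horizontal) and on day 1 in other mice (vertical); the dashed line marks equal values. Of the 545 higher genes 492 lie above 0 on day 1, and of the 323 lower ones 246 lie under 0, most closer to 0 than on day 2.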

How the data were processed

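The authors' deposited table of expected counts per gene was used, 1 row for each of 37620 Ensembl genes; kallisto 0.43 and the build mm9 are named in the submitters' processing notes. Neither the annotation release nor the step from transcripts to genes is given in the sources used here. Deposited normalised values and TPM were not used. Polyadenylated RNA was measured; columns were matched to samples by source name.

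Expected counts were rounded and fitted with edgeR 4.0.16 (limma 3.58.1, R 4.3.3): filterByExpr (10 counts, 8 groups), TMM, 1 mean per group over all 24 libraries, robust quasi-likelihood F test, Benjamini-Hochberg adjustment over 16552 genes, threshold 0.05. CPM used TMM-scaled library sizes. Log2 values are given ± SE. Tested genes held at least 99.92% of the counts. Biological variation came to a coefficient of 17.6%. The edgeR fit was run on counts simulated from its own fitted means and spread. That run cannot speak to the choice of scaling library or to single outlying libraries.

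Nle1, Apc, the 12 largest positive and 12 largest negative called interactions with a mean of at least 5 CPM and no provisional symbol, and up to 4 members of each of 26 lists with the smallest p were named. Members, lists and tests were chosen with earlier results of these data known. Other called list members were named to complete counts.

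Alternatives were DESeq2 1.42.0, its size factors, no filter beyond 1 count, a filter of 2 CPM in 3 libraries, the 12 libraries alone, a replicate block, a sex term, and leaving out each library. Sex was read from the counts of Y-linked genes against Xist, not from labels. By that reading 2 NlecKO libraries of day 2 were male, against 1 in each other group of that day. Another TMM library was added after seeing the data. Words of 31 bases shared between transcripts were counted on GENCODE M21 (GRCm38), not the authors' annotation. Promoters came from RefSeq.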

Additional observations from a re-analysis of the deposited data

How the results depend on the processing

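The interaction on day 2 counted 809 genes with DESeq2 size factors, 1277 by DESeq2, 580 with no filter beyond 1 count, 1031 with the stricter filter, 871 in the 12 libraries, 941 with another TMM library and 1082 with a sex term. Leaving out a library gave 374 (without ApccKO;NlecKO replicate 3) to 1222 (without Control replicate 2), and 452, 564, 499, 527 and 492 without ApccKO replicate 1, ApccKO;NlecKO replicate 2, ApccKO replicate 3, Control replicate 1 and Control replicate 3. Of the 868 genes 677 were shared with the fit to another TMM library, and 853 with DESeq2. Leaving out libraries gave 4277 to 5040 genes for Notchless loss with Apc lost and 1206 to 2818 with Apc intact. The interaction on day 1 was called for 0 genes with DESeq2 size factors, the stricter filter, another TMM library and the replicate block, 1 in the 12 libraries, 4 with a sex term, 51 by DESeq2 and 0 to 7 on leaving out a library. The difference between days was called for 26 by DESeq2 and 0 to 3 on leaving out a library. The medians of the Myc list moved to -0.221, -0.224 and -0.223 with the stricter filter, the 12 libraries and another TMM library, and those of the cell death list to -0.0588, -0.0654 and -0.0647; the cause was not tested. On leaving out a library, medians ranged from -0.298 to 0.415 (stromal), -0.672 to -0.444 (S phase), -0.207 to 0.260 (Paneth), 0.608 to 1.07 (immune), -0.219 to -0.0345 (Myc) and -0.604 to -0.158 (EGF family). The uncalled interactions of Nle1 and Apc changed sign as libraries were left out, ranging from -0.239 to 0.0194 and from -0.11 to 0.0847; the cause was not tested. None of the 66 called genes chosen by the naming rule reversed, which is no further test because they were chosen as called in the same libraries.

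Nothing in the labels pairs mice by replicate number, and deviations of same-numbered libraries correlated at -0.173 to 0.258. With the replicate block 605 genes were called, 393 higher and 212 lower. Precision is limited by 3 mice a group, and genes at a few counts have uncertain folds.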

Other observations

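Several gene families, chosen after their values were seen, held more than 1 called member in the interaction on day 2. Of 5 tested Naip genes, sensors of bacterial flagellin and secretion systems, 4 were higher: Naip1 (1.39 ± 0.31, adjusted p = 0.013), Naip2 (0.83 ± 0.23, adjusted p = 0.04), Naip5 (1.39 ± 0.37, adjusted p = 0.035) and Naip6 (1.26 ± 0.32, adjusted p = 0.03). Naip1 averaged 35.6 CPM in ApccKO;NlecKO against 15.7 CPM in ApccKO crypts, and 79.8 CPM in NlecKO against 92.5 CPM in Control crypts. Of the 31-base words of these 4 genes, 32.8% to 53.1% also occur in other transcripts, so their separate values are uncertain. Carboxylesterase 2 genes had 3 of 7 higher (Ces2e, Ces2f and Ces2g) and 7 positive estimates. Subunits of the vacuolar proton pump had 4 of 18 higher, Vps sorting genes 5 of 30, and subunits of the AP-1 to AP-3 adaptors 5 of 18, with 0 lower in each, where 3.29% of all genes were higher. The median interactions of these 3 families were 0.325, 0.181 and 0.079. The median over all genes moved from 0.0441 to -0.0542 with the other scaling library. Family counts, here and below, were not repeated under the alternatives. NADH dehydrogenase subunits (complex I) had 4 of 41 higher, none of them on the list of mitochondrial respiration genes.

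Other families, also chosen after their values were seen, held lower members, where 1.95% of all genes were lower. Chromobox genes had 3 of 8 lower, Cbx1 (-0.51 ± 0.14, adjusted p = 0.042), Cbx2 (-0.79 ± 0.20, adjusted p = 0.026) and Cbx3 (-0.74 ± 0.17, adjusted p = 0.014). The de novo DNA methyltransferase genes Dnmt3a (-0.36 ± 0.10, adjusted p = 0.045) and Dnmt3b (-0.60 ± 0.16, adjusted p = 0.034) were lower, 2 of 3 Dnmt genes. The RNA-binding genes Mex3a (-1.22 ± 0.30, adjusted p = 0.021) and Mex3b (-1.80 ± 0.50, adjusted p = 0.041) were lower, 2 of 4. Among 18 hnRNP genes 2 were lower, Hnrnpa1 (-0.59 ± 0.16, adjusted p = 0.033) and Hnrnph2 (-0.51 ± 0.13, adjusted p = 0.022), and 16 estimates were negative. The immediate early transcription factor genes Jun (-1.54 ± 0.17, adjusted p = 4.6e-05) and Ets2 (-1.06 ± 0.11, adjusted p = 1.5e-05) fell with Apc lost and rose with Apc intact. Jun averaged 130 CPM in ApccKO;NlecKO against 275 CPM in ApccKO crypts, and 63.0 CPM in NlecKO against 45.8 CPM in Control crypts.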
